A study of Mus musculus with 8 samples.

Results

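RGS genes encode regulators of G-protein signalling. The levels of 10 of them were compared in mouse brown adipose tissue (BAT) between animals with thoracic aortic constriction (TAC), in which the aorta is narrowed and the heart loaded with pressure, and animals with sham surgery (Sham). The genes were Rgs1, Rgs2, Rgs3, Rgs4, Rgs5, Rgs7, Rgs10, Rgs14, Rgs16 and Rgs19. They were chosen as a family from the TAC and Sham intensities of these same arrays, with Rgs2 at the head, so their difference between the groups is given below as a description, and the fit over all probes is no independent test of it. A probe belonged to a gene when the RefSeq accession that the array design gives for it mapped to that gene. All 10 genes had a probe, 16 probes of the 55681 on the array, and 9 genes with 15 probes passed the filter on dim signals. The gene left out by the filter was Rgs1.

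The animals were wild-type male C57BL/6NCrSlc mice on normal chow, operated on at 11 weeks of age, with 4 TAC and 4 Sham samples taken at 13 weeks of age. By the labels the tissue was collected 2 weeks after the operation, although their description line says 4 weeks. Total RNA of the tissue was hybridised to one-colour Agilent arrays, on which the brightness of a spot measures the amount of 1 transcript. Scanner values were used for Sham replicates 2 to 4 and all 4 TAC replicates, and Sham replicate 1 was read only from a table of all 8 arrays. The level of a probe is given as log2 of its intensity over the 75th percentile of its array, so 0 marks the 75th percentile and a step of 1 is a 2-fold change. The table has its own zero, so values from it are named as such. All 7 scanned arrays came from 1 slide with the Sham arrays in the first row and the TAC arrays in the second, so row and surgery cannot be told apart. The samples are described as independent, but no label names the animals, and the spread between them may in part be technical.

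Receptors such as the adrenergic receptors of brown fat switch on a G protein by loading its alpha subunit with GTP. RGS proteins bind the loaded alpha subunit and speed up the cleavage of GTP, which ends the signal. In brown adipocytes noradrenaline acts through beta receptors, the stimulatory alpha subunit and cAMP to start heat production, while alpha1 receptors act through Gq. Most RGS proteins act on Gi and Gq, and Rgs2 stands out for its preference for Gq and for its ability to restrain adenylyl cyclase. By structure, Rgs1, Rgs2, Rgs3, Rgs4, Rgs5 and Rgs16 form the R4 subfamily, whose members are mostly little more than the RGS domain. Rgs7 belongs to the R7 subfamily, which is stable only when bound to the G protein beta subunit Gnb5, Rgs10 and Rgs14 to the R12 subfamily, and Rgs19, also called GAIP, to the RZ subfamily.

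In the mouse genome 6 of the 10 genes lie on chromosome 1. In the RefSeq table of assembly GRCm38.p6, Rgs2, Rgs13, Rgs1, Rgs21 and Rgs18 follow one another with no other protein-coding gene between them, Rgs8 lies next to Rgs16, and Rgs5 lies next to Rgs4. The region before the start site of Rgs2 is shown because Rgs2 had the largest difference among the family and because its transcript is known to be induced by cAMP. The region of Rgs4 is shown beside it because Rgs4 was the only other gene of the family with the same motif. Both are the 250 bases upstream of the RefSeq start site, 5′ to 3′ on the strand of the gene. Capitals mark the motif TGACG, a part of the cAMP response element (written CGTCA where it lies on the opposite strand), and, in Rgs4, the motif TATAAA.
Rgs2, minus strand, GRCm38.p6 chr1:144004150-144004399: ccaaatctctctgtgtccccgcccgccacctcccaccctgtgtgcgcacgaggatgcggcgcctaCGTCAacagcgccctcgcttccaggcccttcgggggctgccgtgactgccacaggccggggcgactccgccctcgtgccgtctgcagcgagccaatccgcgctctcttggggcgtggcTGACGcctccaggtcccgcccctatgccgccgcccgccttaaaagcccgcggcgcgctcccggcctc
Rgs4, minus strand, GRCm38.p6 chr1:169747643-169747892: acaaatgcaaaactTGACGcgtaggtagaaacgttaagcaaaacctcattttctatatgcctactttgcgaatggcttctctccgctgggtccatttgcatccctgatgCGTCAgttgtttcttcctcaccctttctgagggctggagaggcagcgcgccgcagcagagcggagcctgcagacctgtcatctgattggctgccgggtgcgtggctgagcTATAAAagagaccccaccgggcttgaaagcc

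Motifs were searched on both strands of windows from 250 bases before to 50 bases after each start, of which 8 of the 10 genes had 11 in the RefSeq table. Rgs1 and Rgs14 had none. The full cAMP response element TGACGTCA was in none of the 11 windows, and it was in 1.79% of the 32851 windows of all genes. The shorter TGACG, which the full element contains, was in 20.8% of all windows. Among the family it was at 2 places in Rgs2, from -185 to -181 and from -67 to -63 relative to the start, and at 2 places in Rgs4, from -236 to -232 and from -141 to -137. The E-box CACGTG was in the window of Rgs7, in 1 of the 3 windows of Rgs19, where it lay after the start, and in 7.15% of all windows. The TATA box TATAAA was in both windows of Rgs3, in Rgs4 and in 13.6% of all windows. The Rgs2 window had 70.0% G and C with 33 CpG dinucleotides, against a median of 52.7% G and C over all windows. This was not particular to Rgs2. The 11 windows ran from 49.7% in Rgs3 to 76.0% in Rgs10, and Rgs7 and 1 window of Rgs19 were also above Rgs2, at 73.3% and 72.7%. These are matches of letters, and the arrays do not measure binding to them.

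TAC replicate 1 lay away from the rest. A first principal component over 33339 probes held 39.3% of the variance, and on it this array was at 89.6, the other TAC arrays between -8.58 and 3.58, and the Sham arrays between -32.6 and -20.3. On average its brown adipocyte markers were low and its macrophage, lymphocyte and neutrophil markers high, with values given beside the genes they moved with. The share of spots well above background was 58.4 to 64.3% on the Sham arrays and 54.5 to 59.7% on the TAC arrays. Over all 33364 probes tested, limma called 0 at an adjusted p of 0.05 in either direction (0.00%). The smallest adjusted p was 0.0575, and 1462 probes were higher and 2814 lower in TAC at an unadjusted p of 0.05. The methods' t-test also called 0 after Benjamini-Hochberg adjustment, with 1602 higher and 2587 lower before it. No probe of the RGS genes passed the adjusted p of 0.05.

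Rgs2 was higher in TAC than in Sham. Its probe A_55_P2109857 read 6.66, 6.07 and 6.16 on Sham replicates 2, 3 and 4, and 7.45, 7.37, 7.28 and 7.55 on TAC replicates 1 to 4. Every TAC array lay above every Sham array, and the TAC arrays lay closer together than the Sham arrays. The means were 6.30 ± 0.32 (SD, n = 3) in Sham and 7.41 ± 0.11 (SD, n = 4) in TAC, a difference of 1.12 ± 0.16 (SE), or 2.17-fold. In bulk tissue, fewer cells of a type and less RNA per cell cannot be told apart. The level on TAC replicate 1 was inside the range of the other TAC arrays. The mean immune and brown adipocyte marker levels of that array were far from theirs, and their part in the Rgs2 difference was not tested. Without TAC replicate 1 the difference was 1.10 ± 0.18 (SE).

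Sham replicate 1 was the Sham sample closest to TAC. In the table of 8 arrays the same probe read 7.32, 6.87, 6.26 and 6.35 on Sham replicates 1 to 4 and 7.64, 7.55, 7.47 and 7.72 on TAC replicates 1 to 4. The groups still did not overlap, but Sham replicate 1 lay nearer to the TAC arrays than to any other Sham array. The difference in the table was 0.90 ± 0.22 (SE) with means of 6.70 ± 0.49 (SD, n = 4) in Sham and 7.59 ± 0.11 (SD, n = 4) in TAC. Among the 9 RGS genes, with 1 probe for each, Rgs2 was the only 1 with every TAC array above every Sham array, both on the 7 scanned arrays and in the table. Over all 14986 genes tested, this held for 5.37% on the 7 arrays and for 3.22% in the table. None of the 9 RGS genes had every TAC array below every Sham array, which held for 10.8% of all genes on the 7 arrays and 6.51% in the table. Since Rgs2 was chosen from these intensities, its non-overlap is a description.

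The second Rgs2 probe, A_52_P378968, to the same transcript, separated the groups less. It read 1.11, 0.21 and -0.10 on Sham replicates 2 to 4 and 1.37, 1.10, 0.35 and 1.28 on TAC replicates 1 to 4. TAC replicate 3 lay below Sham replicate 2, and the groups overlapped. The difference was 0.62 ± 0.35 (SE) on the 7 arrays and 0.44 ± 0.34 (SE) in the table, where Sham replicate 1 read 1.25. Both probes put TAC above Sham on average and both had Sham replicate 2 as the highest scanned Sham array. The mean of both probes gave a difference of 0.87.

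**Figure D1:**
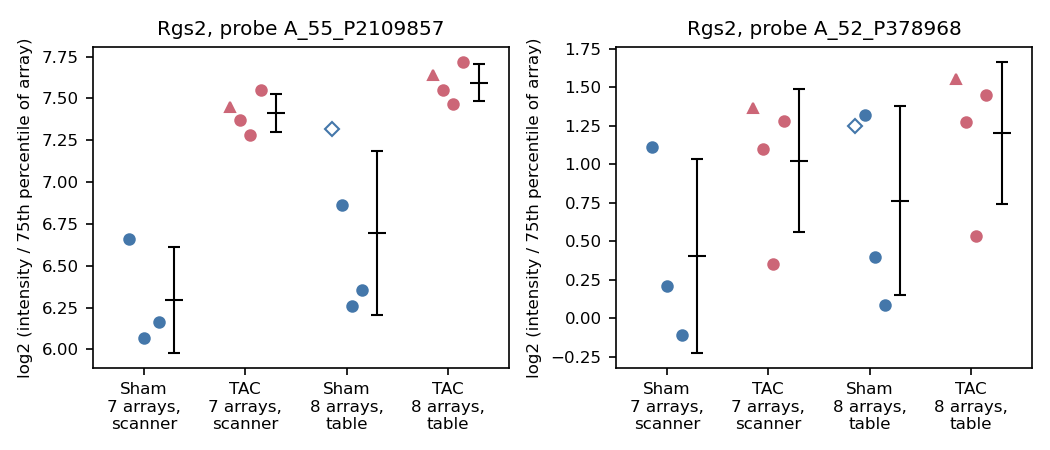
Level of both Rgs2 probes on each array, as log2 of intensity over the 75th percentile of the array, on the vertical axes, which have different ranges. Blue points are Sham and red points TAC, the open diamond is Sham replicate 1 and the triangle TAC replicate 1. Black bars give the mean and SD of each group on the 7 scanned arrays (left pair of each panel) and in the table of 8 arrays (right pair). For probe A_55_P2109857 the TAC arrays sit between 7.28 and 7.55 on the scanned arrays, above the Sham arrays at 6.07 to 6.66, and for probe A_52_P378968 the groups overlap.

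Rgs3, which acts on Gi and Gq, had a smaller difference than Rgs2 and overlapping groups at the probe that stands for it. Its probe A_55_P2027102 read 6.07, 5.36 and 5.41 on the Sham arrays and 6.16, 5.95, 5.67 and 6.16 on the TAC arrays. Sham replicate 2 lay above TAC replicates 2 and 3, so the groups overlapped, and the difference was 0.37 ± 0.21 (SE). In the table Sham replicate 1 read 6.32 and the difference was 0.23 ± 0.21 (SE). A second probe to the same transcript, A_55_P2027107, differed by 0.14 ± 0.12 (SE) and overlapped. The third, A_55_P2027117, is assigned to another Rgs3 transcript and read 1.29, 1.11 and 1.21 on the Sham arrays and 1.58, 1.38, 1.33 and 1.63 on the TAC arrays. There every scanned TAC array was above every scanned Sham array, by a difference of 0.28 ± 0.11 (SE), but in the table Sham replicate 1, at 1.54, lay within the TAC range. Over the 7 arrays the Pearson r of Rgs3 with Rgs2 was 0.80, against -0.48 to 0.29 for the other 8 genes of the family. These arrays share their group and slide, and Sham replicate 2 was the highest scanned Sham array for both genes.

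Rgs4 and Rgs5, neighbours on chromosome 1, are both known from pericytes and smooth muscle cells of blood vessels. Rgs4 probe A_55_P2026738 read -1.59, -1.09 and -0.73 on the Sham arrays and -1.92, -1.11, -0.77 and -1.68 on the TAC arrays. The groups overlapped widely, and the difference was -0.24 ± 0.32 (SE). The other Rgs4 probe, A_55_P2026734, gave -0.26 ± 0.22 (SE). Rgs5 was the steadiest member, at 3.46, 3.47 and 3.69 on the Sham arrays and 3.70, 3.48, 3.50 and 3.64 on the TAC arrays. Its groups covered the same range, with a difference of 0.04 ± 0.10 (SE), and 0.08 ± 0.10 (SE) in the table. The mean of 9 pericyte and smooth muscle markers, all 9 detected, was between -0.06 and 0.24 on the TAC arrays relative to Sham on the log2 scale, over members that went both ways, from -0.45 ± 0.10 (SE) for Kcnj8 (every TAC array below every Sham array, adjusted p = 0.197 by limma) to 0.29 ± 0.16 (SE) for Myh11. Their summed level was 39.1 to 39.6 times the 75th percentile on the Sham arrays and 35.4 to 54.7 times on the TAC arrays.

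Rgs7, the R7 member, was lower on average in TAC. It read 1.15, 0.86 and 0.65 on the Sham arrays and 0.26, 0.80, 0.42 and 0.65 on the TAC arrays. TAC replicate 1 was the lowest array, but TAC replicate 2 lay above Sham replicate 4, so the groups overlapped. The difference was -0.35 ± 0.17 (SE), -0.26 ± 0.16 (SE) without TAC replicate 1, and -0.34 ± 0.15 (SE) in the table. Its partner Gnb5 read 0.76, 0.97 and 0.78 on the Sham arrays and 0.19, 0.67, 0.58 and 0.36 on the TAC arrays. Every TAC array of Gnb5 was below every Sham array, also in the table, with a difference of -0.39 ± 0.14 (SE) that did not pass limma's test over all probes (adjusted p = 0.340). The second Gnb5 probe, A_51_P185259, likewise did not overlap and gave -0.22 ± 0.09 (SE). Among all genes 10.8% had every TAC array below every Sham array.

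Rgs10, Rgs14, Rgs16 and Rgs1 all had TAC replicate 1 as the highest scanned array. The other TAC arrays were near Sham for Rgs10 and more spread out for Rgs14, Rgs16 and Rgs1. Rgs10, abundant in microglia and other immune cells, read 0.88, 0.80 and 1.10 on the Sham arrays and 2.00, 0.83, 0.76 and 0.81 on the TAC arrays. TAC replicates 2 to 4 lay below the Sham median, and the difference of 0.17 ± 0.31 (SE) became -0.13 ± 0.10 (SE) without TAC replicate 1. Rgs14, a scaffold that also binds Ras and Rap proteins, read -2.58, -2.65 and -2.63 on the Sham arrays and -1.70, -2.47, -2.64 and -3.03 on the TAC arrays. The TAC arrays spread on both sides of the narrow Sham range, and the difference of 0.16 ± 0.29 (SE) became -0.09 ± 0.15 (SE) without TAC replicate 1.

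Rgs16, an R4 gene known to be induced in lymphocytes, was near background. It read -4.44, -4.75 and -4.39 on the Sham arrays and -2.39, -4.96, -3.91 and -4.88 on the TAC arrays, and it was well above background on 2 Sham arrays and on TAC replicates 1 and 3. The difference of 0.49 ± 0.60 (SE) became -0.06 ± 0.29 (SE) without TAC replicate 1. Rgs1, best known from B cells and other activated lymphocytes, was well above background on TAC replicate 1 alone, at -3.36. The other scanned arrays were not well above background, with readings of -6.98 to -5.28 in Sham and -7.15 to -5.32 in TAC replicates 2 to 4. In the table Rgs1 read -3.17 on TAC replicate 1, and Sham replicate 1 was next highest at -4.68. Rgs18, which lies near Rgs1 with Rgs21 between them, is known from platelets and is not 1 of the 10. It read -3.12 on TAC replicate 1 and -4.64 to -3.43 on the other scanned arrays, and was well above background on 5. In the table it read -2.93 on TAC replicate 1, with Sham replicates 1 and 4 close by at -3.32 and -3.24.

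**Figure D2:**
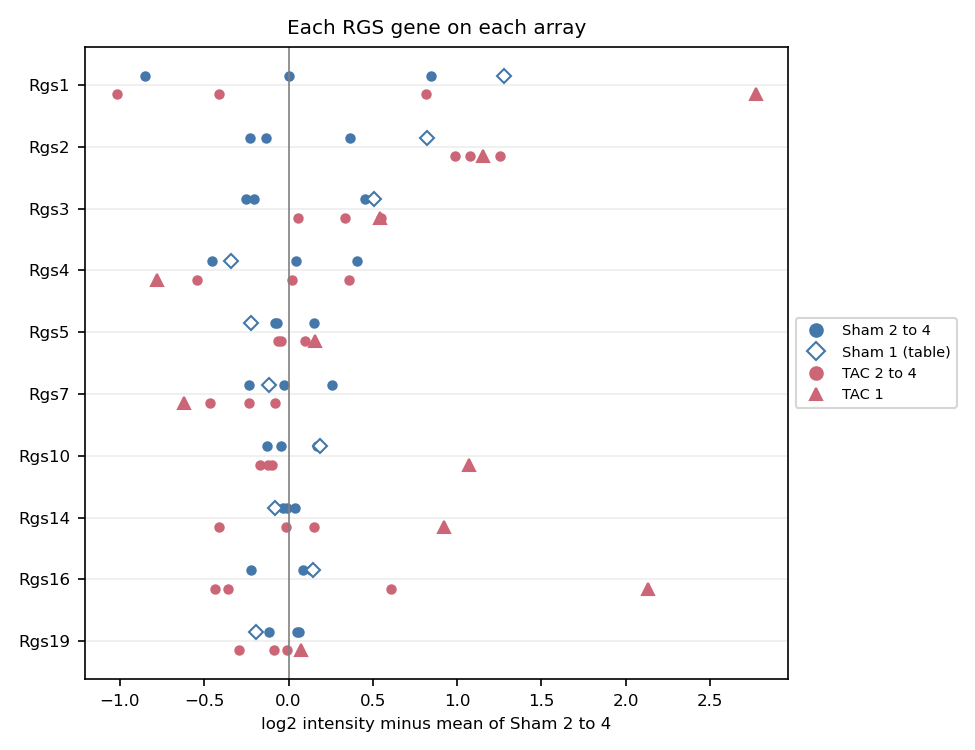
Level of each of the 10 RGS genes on each array, on the horizontal axis as log2 intensity minus the mean of Sham replicates 2 to 4, with 1 probe for each gene. Blue points are Sham and red points TAC, triangles are TAC replicate 1, and open diamonds are Sham replicate 1, taken from the table relative to the same 3 Sham arrays of the table. TAC replicate 1 lies farthest to the right for Rgs1, Rgs10, Rgs14 and Rgs16, and the TAC arrays lie together to the right for Rgs2.

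Cell type markers moved on the same array. Relative to Sham on the log2 scale, the mean of 9 macrophage markers, all 9 detected, was 1.12 on TAC replicate 1 and -0.36 to -0.09 on the other TAC arrays. Their summed level was 41.6 to 44.2 times the 75th percentile in Sham, 68.5 on TAC replicate 1 and 35.8 to 42.8 on the others. Of the lymphocyte list 5 of 8 markers were detected. Their mean was 0.80 on TAC replicate 1 and -0.33 to -0.09 on the others. The summed level of the list was 8.56 to 9.0 in Sham and 8.46 to 9.19 in TAC. Its members went both ways, with Cd3g, Cd8a and Cd79b highest on TAC replicate 1. Cd4, at 2.60, was lowest there, and Cd3e, at 1.08, was inside the Sham range. The neutrophil mean was 1.61 on TAC replicate 1 and -0.71 to -0.32 on the others, and the summed level 5.72 there, 3.68 to 4.60 on the others and 4.26 to 4.40 in Sham, with 3 of 5 markers detected and Mpo not above background on any array. Brown adipocyte markers went the other way, with a mean of -1.54 on TAC replicate 1 and -0.69 to -0.15 on the other TAC arrays. Their summed level was 3647 to 4465 in Sham, 2852 on TAC replicate 1 and 3585 to 3861 on the others, and all 8 of them, Ucp1 included, were detected, which fits the labelled tissue. Skeletal muscle markers had a mean of -0.73 to 0.81 on the Sham arrays and of 1.78, 1.06, -0.16 and 1.44 on TAC replicates 1 to 4. All 6 were higher in TAC on average, with a median difference of 1.06 and 0 called by limma, 0 also at an unadjusted p of 0.05, and their part in the Rgs2 difference was not tested. On TAC replicate 3 the muscle mean was within the Sham range. There Rgs2 probe A_55_P2109857 read 7.28, above every scanned Sham array and lowest of the TAC arrays. The other Rgs2 probe, A_52_P378968, read 0.35 there, inside the Sham range. In the table of 8 arrays Sham replicate 1 had marker means of 0.27 for macrophage, 0.46 for lymphocyte and 0.27 for neutrophil, relative to Sham replicates 2 to 4. Its brown adipocyte mean was -0.28, within the range of TAC replicates 2 to 4. Its muscle mean was 0.76, and its Rgs2 reading of 7.32 at probe A_55_P2109857 was the highest of the Sham arrays in the table. The part of these cell types in the levels of Rgs1, Rgs10, Rgs14 and Rgs16 was not tested.

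**Figure D3:**
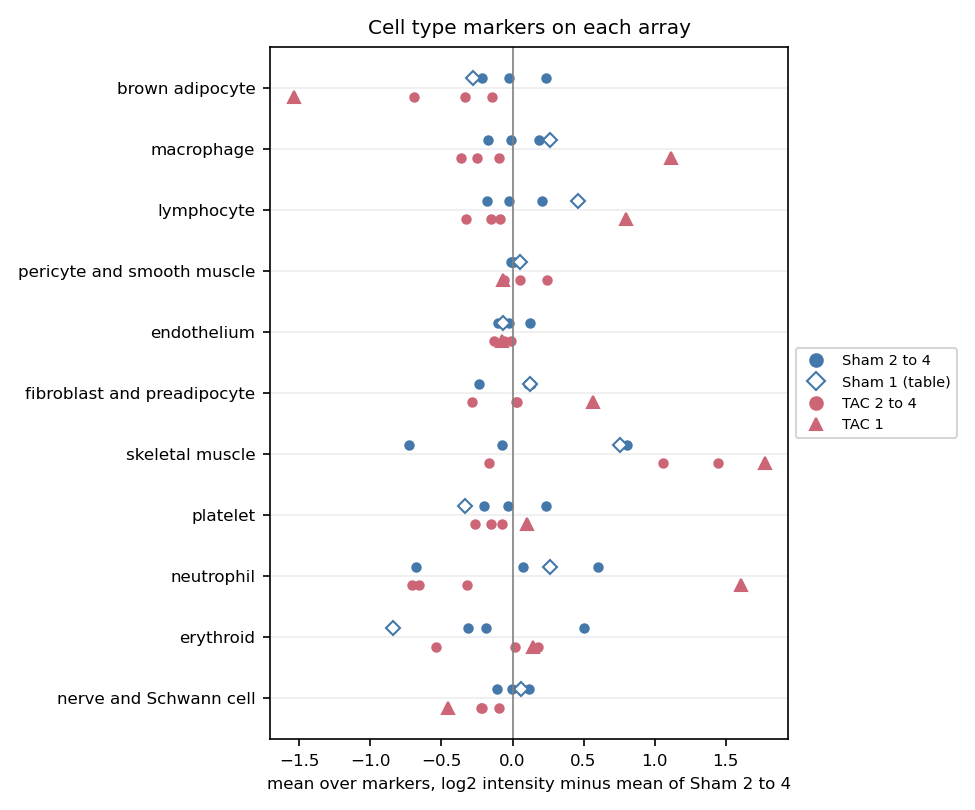
Mean over the markers of each cell type on each array, on the horizontal axis as log2 intensity minus the mean of Sham replicates 2 to 4. Colours and symbols are those of the plot of the 10 RGS genes by array. TAC replicate 1 is at 1.12 for macrophage, 0.80 for lymphocyte, 1.61 for neutrophil and -1.54 for brown adipocyte markers, apart from the other TAC arrays.

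Rgs19, the RZ member, acts on Gi and is known from vesicle traffic. Its probe A_55_P2078403 read 1.64, 1.80 and 1.82 on the Sham arrays and 1.83, 1.47, 1.67 and 1.75 on the TAC arrays. The groups overlapped, and its 3 probes gave differences of -0.08 ± 0.11, -0.08 ± 0.12 and -0.01 ± 0.12 (SE). Of the 9 genes that passed the filter, 6 had a higher and 3 a lower mean in TAC, with a median difference of 0.16. The median over all 14986 genes was -0.03, with 6725 higher and 8261 lower. Without TAC replicate 1 the median of the 9 genes was -0.06, since Rgs10, Rgs14, Rgs16 and Rgs5 turned to a negative difference, and in the table of 8 arrays it was 0.11. The differences of Rgs2 and Rgs3 were positive and those of Rgs4, Rgs7 and Rgs19 negative under each of the 3 choices.

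**Figure D4:**
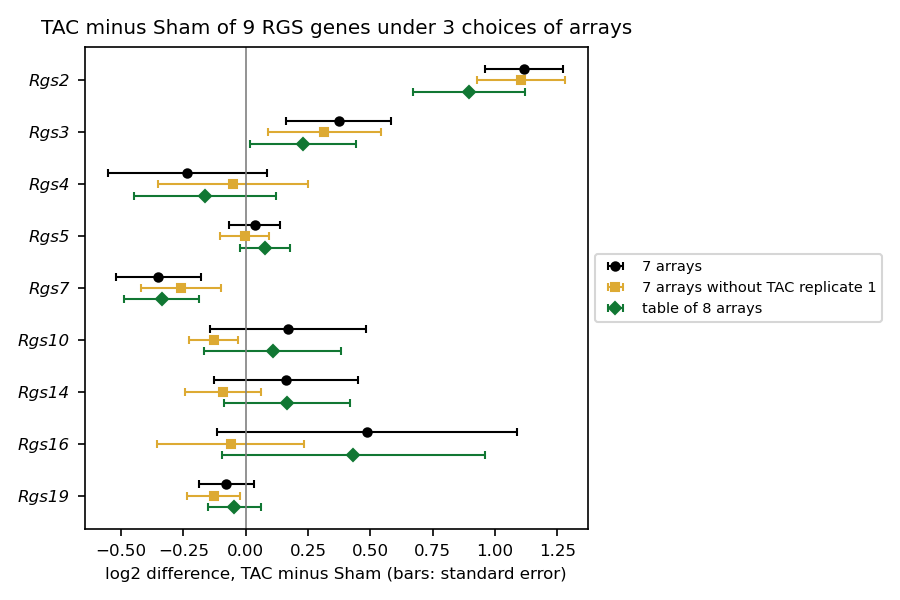
Difference in level between TAC and Sham for the 9 RGS genes that passed the filter, on the horizontal axis as log2 TAC minus Sham, with the standard error from limma as bars. Black circles use the 7 scanned arrays, yellow squares leave out TAC replicate 1, and green diamonds use the table of 8 arrays. Rgs2 lies at 1.12, 1.10 and 0.90, and Rgs10, Rgs14 and Rgs16 change sides of 0 when TAC replicate 1 is left out.

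None of the other RGS genes passed limma's test. All 14 of this list, which includes the anchor proteins Rgs7bp and Rgs9bp and Gnb5, had a probe and 11 passed the filter, and Rgs8, Rgs13 and Rgs22 did not. Of the 11, 0 were called, and 2 had an unadjusted p of 0.05 or less, as did 1803 of all 14986 genes (12.0%). Their differences had a median of -0.09, with 5 higher and 6 lower. Rgs9, the R7 protein of photoreceptors and striatum, had a difference of -0.52 ± 0.22 (SE, adjusted p = 0.388) for the probe that stands for it, with -0.06 and 0.09 for its other 2 probes. Rgs12, a large scaffold of the R12 subfamily, had 0.20 ± 0.13 (SE, adjusted p = 0.535). Rgs11, another R7 member, read -0.76, -0.84 and -0.60 on the Sham arrays and 1.15, -0.70, -0.53 and -0.64 on the TAC arrays, so it was also high on TAC replicate 1 alone. The remaining 7 genes, among them Rgs6, Rgs17, Rgs18, Rgs20 and Rgs21, had differences of -0.20 to 0.11. Of 14 proteins with an RGS-homology domain, such as receptor kinases, 14 passed the filter and 0 were called, with 0 at an unadjusted p of 0.05. Their differences ran from -0.19 to 0.14. The smallest p belonged to Grk4 at -0.17 ± 0.08 (SE, adjusted p = 0.417), Grk6 at 0.14 ± 0.08 (SE, adjusted p = 0.50) and Arhgef11 at -0.16 ± 0.11 (SE, adjusted p = 0.539).

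No subunit of the G proteins on which the RGS proteins act passed the test. Of 13 alpha subunits 12 passed the filter, 6 had a higher and 6 a lower mean in TAC, and limma called 0, with 1 at an unadjusted p of 0.05. Gnaq, the alpha subunit that Rgs2 prefers, read 1.52, 1.60 and 1.55 on the Sham arrays and 1.38, 1.55, 1.40 and 1.67 on the TAC arrays, with overlap. Gnas, which encodes the stimulatory subunit, had a difference of -0.07 ± 0.13 (SE) and Gnai2, an inhibitory one, 0.10 ± 0.09 (SE); these 3 were chosen for their role after their values were seen. Gnal, a close relative of Gnas, had 0.82 ± 0.24 (SE, adjusted p = 0.283), with every scanned TAC array above every Sham array but overlap in the table, where its difference was 0.39. Gna12 had -0.14 ± 0.10 (SE, adjusted p = 0.595) and Gna13 -0.11 ± 0.09 (SE, adjusted p = 0.635). Of 14 beta and gamma subunits 11 passed, with 4 higher, 7 lower and 0 called, 0 also at an unadjusted p of 0.05. The 3 with the smallest p were gamma subunits, Gng3 at 0.19, Gng7 at 0.23 and Gng11 at 0.20, with adjusted p of 0.506 or above.

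Upstream and downstream of the G proteins, limma again called 0 genes. Of 9 adrenergic receptors 8 passed the filter, 6 higher and 2 lower, with 1 at an unadjusted p of 0.05. Adrb3, the beta receptor of adipocytes, read 3.83, 4.62 and 4.05 on the Sham arrays and 2.02, 3.20, 4.00 and 3.42 on the TAC arrays, with a difference of -1.0 ± 0.45 (SE, adjusted p = 0.411). Adrb1 had -0.70 ± 0.26 (SE, adjusted p = 0.348), and Adra1b, which couples to Gq, had 0.08 ± 0.09 (SE, adjusted p = 0.722). Adrb3 was lowest on TAC replicate 1, and Adrb1 was next to lowest there. The mean of the brown adipocyte markers, which include Adrb3 itself, was also low on that array. The part of these markers in the receptor differences was not tested. Of 25 effectors 22 passed, 6 higher and 16 lower, with 4 of the 22 at an unadjusted p of 0.05, against 12.0% of all genes. Among the adenylyl cyclases, which make cAMP, Adcy5 had 0.97 ± 0.32 (SE, adjusted p = 0.318) and Adcy3 -0.50 ± 0.19 (SE, adjusted p = 0.356). In the table of 8 arrays their differences were 0.58 ± 0.43 and -0.43 ± 0.18 (SE). There Sham replicate 1 read -0.52 for Adcy5, within the TAC range. The cAMP phosphodiesterase Pde4b had -0.53 ± 0.20 (SE, adjusted p = 0.360). In the table its difference was -0.29 ± 0.28 (SE), and Sham replicate 1, at -2.37, lay below every TAC array.

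Rgs2 differed in direction from most of the 13 genes listed as induced by cAMP. Of these, 12 passed the filter, 1 with a higher and 11 with a lower mean in TAC, with a median difference of -0.68, or -0.46 without TAC replicate 1 and -0.78 in the table. Among the 11, Ppargc1a at -0.01 ± 0.42, Nr4a1 at -0.02 ± 0.48 and Per1 at -0.09 ± 0.08 (SE) lay near 0. In the table Ppargc1a was higher in TAC, by 0.16. Fos and Egr1 spread widely in Sham, with SDs of 1.93 and 2.07 on the scanned arrays. In limma's test 0 were called and 4 of the 12 had an unadjusted p of 0.05 or less, against 12.0% of all genes. Brown adipocyte markers, which share Ucp1 and Dio2 with this list, were lower too, 7 of 8, with a mean difference of -0.68. Their single differences ran from -2.48 for Elovl3 to 0.10 for Pparg. The part of these markers in the list's difference was not tested. The kinase gene Sik1 read 0.76, 1.46 and 1.0 on the Sham arrays and -1.06, 0.25, 0.44 and -0.83 on the TAC arrays, a difference of -1.37 ± 0.41 (SE, adjusted p = 0.285). The nuclear receptor Nr4a2 had -0.83 ± 0.23 (SE, adjusted p = 0.268) and the phosphatase Dusp1 -1.15 ± 0.37 (SE, adjusted p = 0.312). For 4 of the 12, every scanned TAC array lay below every scanned Sham array, and in the table this held for 2, against 10.8% and 6.51% of all genes. The difference between Rgs2 and this list was not tested.

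**Figure D5:**
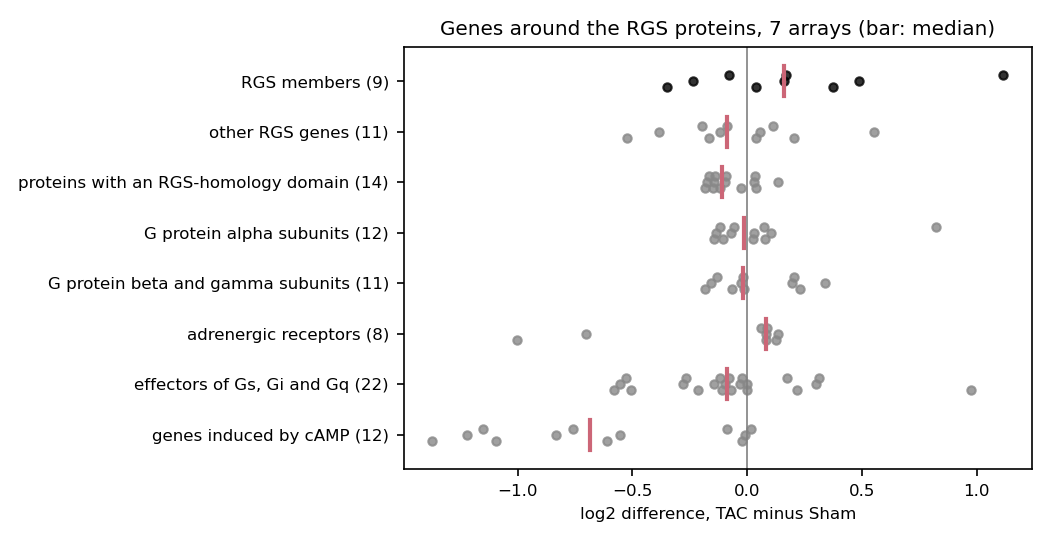
Difference in level between TAC and Sham on the 7 scanned arrays for each gene of the lists around the RGS proteins, on the horizontal axis as log2 TAC minus Sham, with 1 point for each gene that passed the filter (their number in parentheses) and a red bar at the median. The RGS genes, in black at the top, have a median of 0.16 with Rgs2 at 1.12, and the genes induced by cAMP, at the bottom, have a median of -0.68.

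The genes whose levels ran most like Rgs2 were Dmap1, Xab2, Rufy2, Slc38a6 and Lrp1, out of 13664 genes with a probe well above background on all 7 arrays. Their Pearson r with Rgs2 over the 7 arrays was 0.993, 0.990, 0.986, 0.979 and 0.978 in that order. In the table of 8 arrays, with each group centred on its own mean, the r was 0.967, 0.887, 0.952, 0.934 and 0.984. Their own differences between the groups were small, from 0.15 for Dmap1 to 0.34 for Rufy2, against 1.12 for Rgs2. Dmap1, for example, read 2.45, 2.37 and 2.40 on the Sham arrays and 2.57, 2.55, 2.54 and 2.56 on the TAC arrays. These points share 1 slide and the split into Sham and TAC, and the 5 genes are the top of a ranking over all candidates.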

How the data were processed

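BAT RNA of 4 Sham and 4 TAC mice was measured on one-colour Agilent arrays. Per the file headers and labels, the authors extracted the spots with Agilent Feature Extraction 10.7.1.1, and the deposited scanner intensity (7 arrays) is linear and background-subtracted. The authors also deposited an intensity table of all 8 arrays. How it was made is not given in the sources used here, but over probes above 100 units it equals the scanner intensity divided by a constant, to within 1%, with a 75th percentile of 1.002 to 1.004 in each column.

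Here intensities were converted to log2, the 75th percentile of the array subtracted, spots marked as outliers left out (134 to 191 per array) and spots of a probe averaged. Probes well above background on at least 3 of 7 arrays, and measured on 2 of each group, were tested with lmFit and eBayes of limma 3.58.1 (R 4.3.3), with Benjamini-Hochberg adjustment over 33364 probes and no block. The number of arrays limits the precision. The script was tested on simulated data. Symbols came from RefSeq (GRCm38.p6) through accessions without versions, for 28026 of 55681 probes. The array was designed on another assembly. The probe with the highest mean stands for a gene.

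The RGS genes, gene lists and markers were chosen with earlier results of these data known. Named are every RGS gene, the 3 genes with the smallest p of each list and the 5 most like Rgs2. Other genes named with values, such as Rgs11 and Rgs18 for their level on TAC replicate 1, were chosen after their values were seen. Alternatives were normexp (offset 50, on median intensities, since no mean is given), median centring, quantile normalization, the table of 8 and of the same 7 arrays, no or a stricter filter, outliers kept, an intensity trend, leaving out each array, a block for the replicate number, the methods' t-test, and the mean of all probes. The table without TAC replicate 1 was added after seeing the data.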

Additional observations from a re-analysis of the deposited data

Results flagged for a closer look

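Among 40 groups of 4 arrays examined with Dixon's test, for the RGS genes and the cell type markers, 4 held 1 array far from the other 3, and chance gives about 1 in 20. For Rgs10, TAC replicate 1 read 2.00 against 0.76 to 0.83 on the other TAC arrays, and the gap was 0.940 of the group's range. The neutrophil markers stood at 1.61 on TAC replicate 1 against -0.71 to -0.32 on the other TAC arrays, with a gap of 0.832 of the range. In the table of 8 arrays Rgs16 read -4.57 on Sham replicate 3 against -4.24 to -4.18 on the other Sham arrays, a gap of 0.863 of the range. In the same table the fibroblast and preadipocyte markers had a mean of 3.82 on Sham replicate 3 against 4.16 to 4.20, a gap of 0.915 of the range. What sets these arrays apart was not tested.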

How the results depend on the processing

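The Rgs2 difference of 1.12 was positive under each of 21 alternatives. It moved by more than the spread between replicates of 0.22 with the mean of all probes of the gene (0.87), the table of 8 arrays (0.90), the replicate number as a block in that table (0.90) and the table without TAC replicate 1 (0.88). The mean of all probes adds a probe with a smaller difference, and the table adds Sham replicate 1. Without 1 array at a time it was 1.0 to 1.30, highest without Sham replicate 2. Over 188 alternatives for the 9 RGS genes, 184 differences stayed within the spread between replicates, and 13 had the other sign, 3 each for Rgs10, Rgs14, Rgs16 and Rgs5 and 1 for Rgs4. Rgs16 had no value with a filter that requires every array. Of the pathway genes listed, 0 were called under each alternative. Over all probes, calls went from 0 to 1 lower with median centring (a probe without a symbol) and to 1 lower with normexp (Acss2), and the cause was not tested. Leaving out each array gave 0 to 7 higher and 0 to 1 lower, with 7 higher and 1 lower without TAC replicate 4. Without Sham replicate 3, probes at an unadjusted p of 0.05 fell to 893 higher and 1602 lower. Deviations of samples with the same replicate number had an r of -0.03 to 0.00 on the scanned arrays. In the table it was 0.27 for the pair numbered 1 and 0.02 to 0.06 for the others, so the numbers were not taken as pairs. With the replicate number as a block on the 7 arrays the Rgs2 difference was 1.10 and 0 probes were called. Depth has no direct measure on arrays, and Rgs1 and Rgs16 were at or near background.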
